A study of Homo sapiens with 18 samples.

Results

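The 10 genes encoding TGF-beta superfamily ligands studied here (BMP2, BMP4, BMP6, BMP7, GDF11, GDF15, INHBE, INHBA, TGFB1 and TGFB2) were examined in RNA-Seq counts from a human cell line that makes the endoplasmic reticulum (ER) stress sensor ERN2 on demand. The genes were taken by name from a table of 25435 gene rows, and all 10 of 10 reached at least 10 counts in 3 or more libraries, as did 15150 rows of the table. The line, HEK293doxERN2, is derived from the embryonic kidney line HEK293 and carries a FLAG-tagged ERN2 transgene under doxycycline control. For 24 hours the medium held no doxycycline, a low dose of 10 ng/mL or a high dose of 100 ng/mL. Thapsigargin, which empties the calcium store of the ER, was given at 200 nM for 3 hours, and control cells had the solvent DMSO (vehicle). Each of the 6 groups had 3 libraries, 18 in all. All groups carry the transgene, and no group without it had doxycycline, so an effect of doxycycline itself and an effect of ERN2 cannot be told apart here. Nothing in the labels states that the replicates were separate cultures, so p-values measure the spread between these libraries, which may be technical.

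TGF-beta superfamily ligands are made as precursors that enter the ER, pair up through disulfide bonds and are cut by furin-type proprotein convertases on their way out of the cell. Outside, they bind pairs of type I and type II receptor kinases, which phosphorylate SMAD proteins that then regulate transcription. TGFB1 and TGFB2 are secreted in a latent form held by latent TGF-beta binding proteins, BMPs are held in check by antagonists such as noggin, and inhibin beta chains pair into activins. GDF15 and INHBE are known as genes that rise when the integrated stress response is switched on. ERN2 (IRE1 beta) is the epithelial relative of ERN1, an ER membrane enzyme whose kinase and RNase domains face the cytosol, and enzymes of this family splice XBP1 mRNA and can cut other mRNAs at the ER membrane.

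Library totals lay between 14876416 and 24652240 counts. Levels are given as CPM, the counts of a gene scaled to the library's TMM-adjusted total. The ERN2 row, which holds transgene and endogenous reads alike, read 6.57 to 9.10 CPM in uninduced vehicle libraries, 22.5 to 55.9 with the low dose and 249 to 309 with the high dose, and 10.4 to 14.2, 32.1 to 112 and 175 to 272 CPM with thapsigargin. The extraction note in the labels names colon crypt epithelium, so markers of both tissues were read. The 5 HEK293 markers (VIM, NEFL, NEFM, INA and PAX2) all reached 10 counts, with a summed level of 1516 to 2598 CPM. Of 9 colon epithelium markers, 1 (CDX2) reached 10 counts in any library, and the others stayed at or below 0.513 CPM.

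On GRCh38 the genes with the clearest differences below lie at chr6:7726797-7881422 on the plus strand (BMP6), chr19:41301587-41353911 on the minus strand (TGFB1), chr20:57168748-57266629 on the minus strand (BMP7), chr12:55743280-55757278 on the plus strand (GDF11), chr12:57452323-57459280 on the plus strand (INHBE) and chr7:41667168-41705834 on the minus strand (INHBA). The others lie at chr20:6767664-6780280 (BMP2, plus), chr14:53949736-53958761 (BMP4, minus), chr19:18374731-18389176 (GDF15, plus) and chr1:218346235-218444619 (TGFB2, plus). Whether counting used strand is not given in the sources used here. TGFB1 shares 6012 bp with HNRNPUL1, 14695 bp with CCDC97 and 3001 bp with TMEM91 on the opposite strand, GDF11 shares 4816 bp with SARNP, and INHBA shares 11919 bp with its antisense gene INHBA-AS1. If strand was not used, reads of these neighbours could not be told apart from those of the ligand, and their part in the results was not tested.

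XBP1 is the substrate that defines the RNase, so its cut sites are shown as the reference for the ligand mRNAs. Both lie in the coding sequence of the XBP1 transcript examined, at nucleotides 564 to 570 and 590 to 596 of 1850, each a loop of 7 bases (capitals) with the letters CNGCAGN between stem arms of at least 4 pairs.
XBP1 loop 1: ctgctgagtCCGCAGCactcagact
XBP1 loop 2: cgtgcacctCTGCAGCaggtgcagg
A scan for such a stem and loop, chosen after the values below were known, found it in 0 of 10 ligand transcripts, in 4.07% of 12747 coding genes tested at 100 ng/mL in vehicle, in 6.87% of the 1033 of them called lower there and in 3.73% of 18308 coding genes with a row. Median transcript lengths were 3190.5 bases for the ligands, 3521 for the genes tested and 4355 for those called lower. The bare hexamer CTGCAG, which reads the same on both strands, was present in all 10 ligand transcripts at 1 to 5 copies, against 87.0% of those 12747 genes with a median of 3 copies. BMP6, the ligand with the largest difference below, held 3 copies (capitals), the first pair in coding sequence and the last in the 3′ UTR.
BMP6 917 to 922: tggtgacggCTGCAGaattccgca
BMP6 1392 to 1397: gaaaacagcCTGCAGgaagcatga
BMP6 1948 to 1953: gtctggtaaCTGCAGaaacataac
A match is a description of letters and not a cut site, and a missing match says only that these letters are not in the transcript searched. RefSeq promoter windows of GRCh38.p14 (250 bases before to 50 after each start) were matched for 7 of the 10 genes in 9 windows, and INHBE, BMP2 and BMP7 had no window and were not scanned. None of the 9 held the C/EBP-ATF response core TGATGNAA, present in 3.62% of 35116 windows, the UPRE core TGACGTGG (0.729%), the CRE TGACGTCA (1.85%) or the ERSE (0.0769%) on either strand.

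Uninduced, unstressed cells expressed the 10 ligands over a wide range. Per kilobase of exon, TGFB1 was at 33.7 ± 2.92 (SD, n = 3) CPM per kb and BMP6, a BMP best known as an inducer of hepcidin, was at 31.4 ± 1.13. BMP2 (16.5 ± 1.77) and BMP7 (15.9 ± 1.36), both bone- and kidney-active BMPs, followed, then GDF11, a relative of myostatin, at 8.37 ± 0.539 CPM per kb. BMP4 (2.12 ± 0.406) and TGFB2 (1.92 ± 0.516) were lower again. GDF15 (0.220 ± 0.0839), INHBE, the beta E chain of activin E (0.184 ± 0.0313), and INHBA, the beta A chain of activin A (0.0157 ± 0.0126), were near the limit of these libraries. The library ranges overlapped between TGFB1 and BMP6, BMP2 and BMP7, BMP4 and TGFB2, and GDF15 and INHBE, and did not overlap between the other neighbours in this order.

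**Figure D1:**
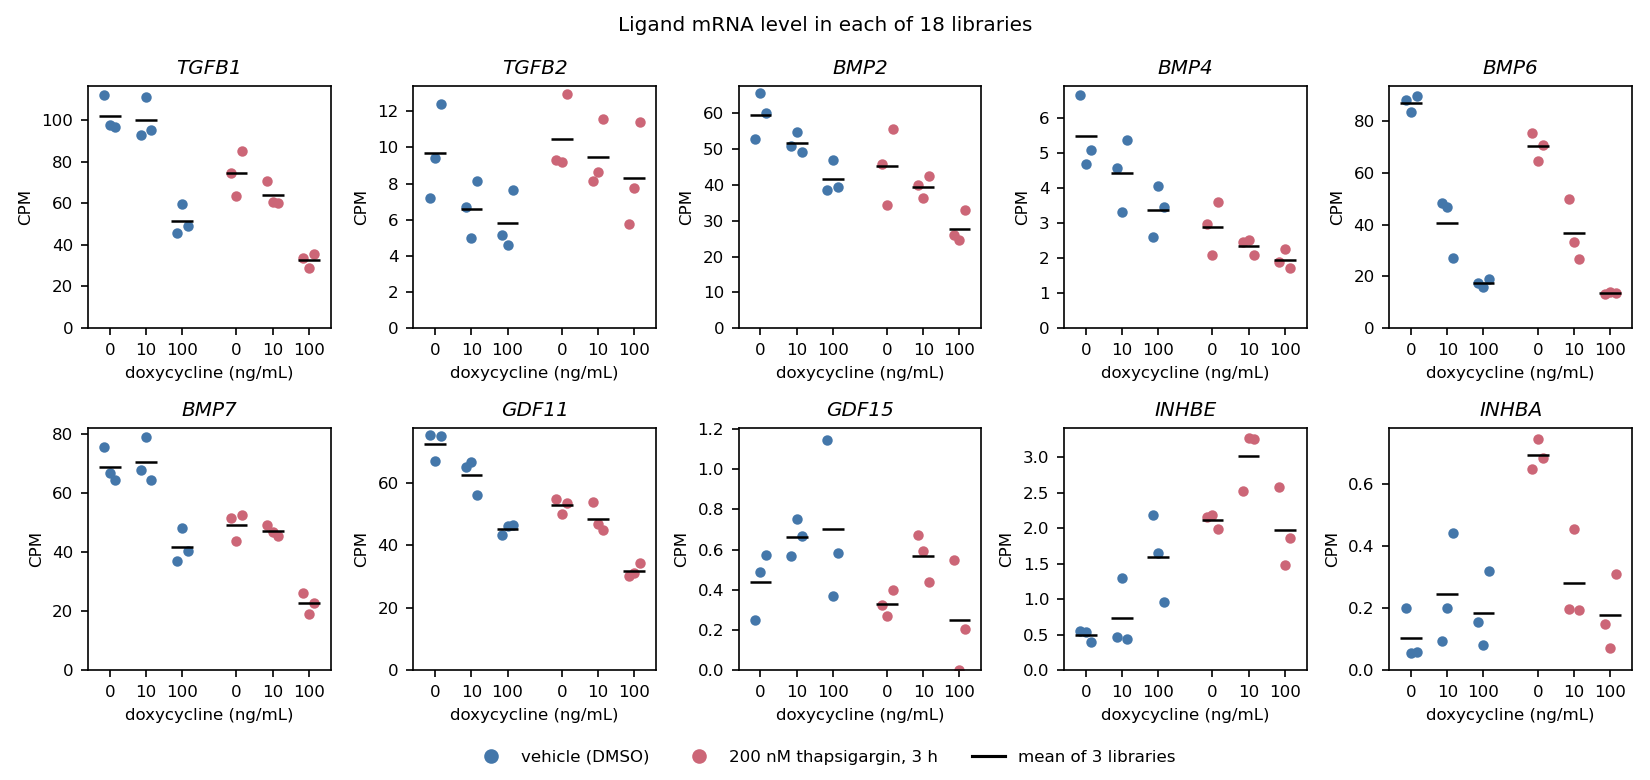
Level of each ligand (vertical axis, CPM, a scale of its own in each panel) in each of the 18 libraries by doxycycline dose (horizontal axis, ng/mL), in vehicle (blue) and thapsigargin (red), with the mean of 3 libraries as a bar. BMP6 averages 87.2, 40.7 and 17.4 CPM in vehicle at 0, 10 and 100 ng/mL, TGFB1, BMP7 and GDF11 are lower at 100 ng/mL, and INHBE is highest with thapsigargin at 10 ng/mL (mean 3.02 CPM).

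BMP6 had the largest difference of the 10 ligands at 100 ng/mL doxycycline in unstressed cells. Its level was 88.2, 83.7 and 89.8 CPM in the 3 uninduced libraries and 17.4, 15.8 and 19.0 CPM in the 3 libraries at 100 ng/mL. The groups lay far apart with no overlap, and BMP6 fell 5.18-fold (log2 fold change -2.37 ± 0.12 (SE), adjusted p = 1.6e-07). All adjusted p-values are from the edgeR quasi-likelihood test adjusted by Benjamini-Hochberg across every gene tested in the comparison, with a threshold of 0.01 unless another tool is named.

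In bulk RNA a lower CPM can come from fewer transcripts per cell or from fewer cells that express the gene, and these cannot be told apart. The summed level of the 5 HEK293 markers was 2131 to 2598 CPM at 100 ng/mL and 1936 to 2196 CPM without doxycycline in vehicle, and VIM, at a mean of 2077 and 1841 CPM, made up most of it. Of the 5 markers, 4 had negative log2 fold changes (median -0.21), with 2 lower at an unadjusted p under 0.05 (17.1% of genes) and 1 called lower (7.49%). The called marker was NEFM, a neurofilament subunit (27.6 against 17.1 CPM, log2 fold change -0.73 ± 0.12, adjusted p = 0.0012). With thapsigargin in both arms the sum was 1981 to 2183 CPM at 100 ng/mL and 1516 to 1692 CPM without doxycycline, and 1 marker, INA, was called higher (1.53% of genes). The part of the marker levels in the ligand results was not tested.

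TGFB1, the founding member of the family, was at 112, 97.3 and 96.3 CPM without doxycycline and at 45.6, 59.5 and 49.3 CPM with 100 ng/mL in vehicle. The groups did not overlap, and TGFB1 fell 2.04-fold (log2 fold change -1.03 ± 0.13, adjusted p = 0.00013). BMP7 was at 75.5, 66.9 and 64.2 CPM in uninduced cells and at 36.8, 48.1 and 40.2 CPM at 100 ng/mL. Each induced library lay below each uninduced one (log2 fold change -0.76 ± 0.13, adjusted p = 0.0016), and without replicate 1 of the uninduced vehicle group the adjusted p was 0.012. GDF11 was at 75.2, 67.0 and 75.03 CPM without and 43.2, 46.1 and 46.3 CPM with 100 ng/mL, again with no overlap (log2 fold change -0.72 ± 0.11, adjusted p = 0.0006).

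In all, 4 of the 9 ligands tested passed the threshold as lower at 100 ng/mL in vehicle and 0 as higher, against 7.49% of 14444 genes lower and 0.838% higher. Beside those 0 higher calls of edgeR, 1 ligand was higher at an unadjusted p under 0.05 (12.2% of genes) and 1 by DESeq2 (1.98%). That ligand was INHBE, which passed the filter here only through the induced group, so these counts of higher ligands are a description. The median log2 fold change of the 9 was -0.73, and that of all genes was -0.01. INHBA did not pass the filter on low counts. BMP2 (-0.55), BMP4 (-0.73) and TGFB2 (-0.78) had negative log2 fold changes with adjusted p-values of 0.012, 0.044 and 0.042. Without replicate 2 of the 100 ng/mL group, BMP2 was called (adjusted p = 0.00078). GDF15 had a log2 fold change of 0.62 (adjusted p = 0.44).

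INHBE had the highest log2 fold change of the 9 ligands in this comparison. It had 11, 10 and 7 counts in the uninduced vehicle libraries and 42, 40 and 18 counts at 100 ng/mL, or 0.550, 0.543 and 0.400 against 2.19, 1.65 and 0.957 CPM. The groups did not overlap, with a log2 fold change of 1.63 ± 0.38 and an adjusted p of 0.012, just outside the threshold. INHBE passed the filter in this comparison only through the induced group. With no filter the adjusted p was 0.0028, it was 0.0065 by DESeq2, and it was 0.0048 without replicate 3 of the 100 ng/mL group. These were the only settings under 0.01, namely 2 of 7 alternatives and 1 of 6 fits with a library left out. Elsewhere the adjusted p reached 0.015 among the alternatives and 0.048 with a library left out.

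At 10 ng/mL in vehicle, BMP6 was the ligand whose libraries lay lowest against the uninduced group. Its 3 libraries had 48.3, 46.7 and 27.0 CPM, all below the 83.7 CPM of the lowest uninduced library. The log2 fold change was -1.11 ± 0.18 with an adjusted p of 0.016, so no call was made. edgeR called 0 of 9 ligands, against 0.193% of 14497 genes in either direction, while 2 ligands were lower at an unadjusted p under 0.05 (16.5% of genes) and DESeq2 called 1 lower (2.34%). The call of BMP6 changed with single libraries, with adjusted p-values of 0.000298 without replicate 1 and 0.00970 without replicate 3 of the 10 ng/mL vehicle group. The share of all genes called lower moved as well, to 10.7% without replicate 1, while it was 0.0547% without replicate 3. Replicate 3 had the lowest BMP6 level of that group and also the highest ERN2 level (55.9 CPM, against 22.5 and 27.1). A link between the levels was not tested. TGFB1 was at 92.7, 111 and 95.3 CPM and BMP7 at 67.6, 79.0 and 64.5 CPM at this dose, and both overlapped the uninduced libraries (log2 fold changes -0.04 ± 0.11 and 0.03 ± 0.12). GDF11 was at 64.9, 66.5 and 56.2 CPM, each library just below the uninduced range (log2 fold change -0.22 ± 0.12, adjusted p = 0.22).

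Between the 2 induced doses in vehicle, 3 of 9 ligands were lower at 100 than at 10 ng/mL, against 2.43% of 14549 genes lower. These were TGFB1 (log2 fold change -0.98 ± 0.13, adjusted p = 0.0032), BMP6 (-1.26 ± 0.22, adjusted p = 0.0079) and BMP7 (-0.78 ± 0.14, adjusted p = 0.0089). For each, the libraries of the doses did not overlap. The count was 0 without replicate 2 of the 10 ng/mL group or without replicate 1 or 3 of the 100 ng/mL group, and the share of genes lower was then 0.0611%, 0.136% and 0.00% in turn. This comparison shares its 100 ng/mL libraries with the one against uninduced cells.

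**Figure D2:**
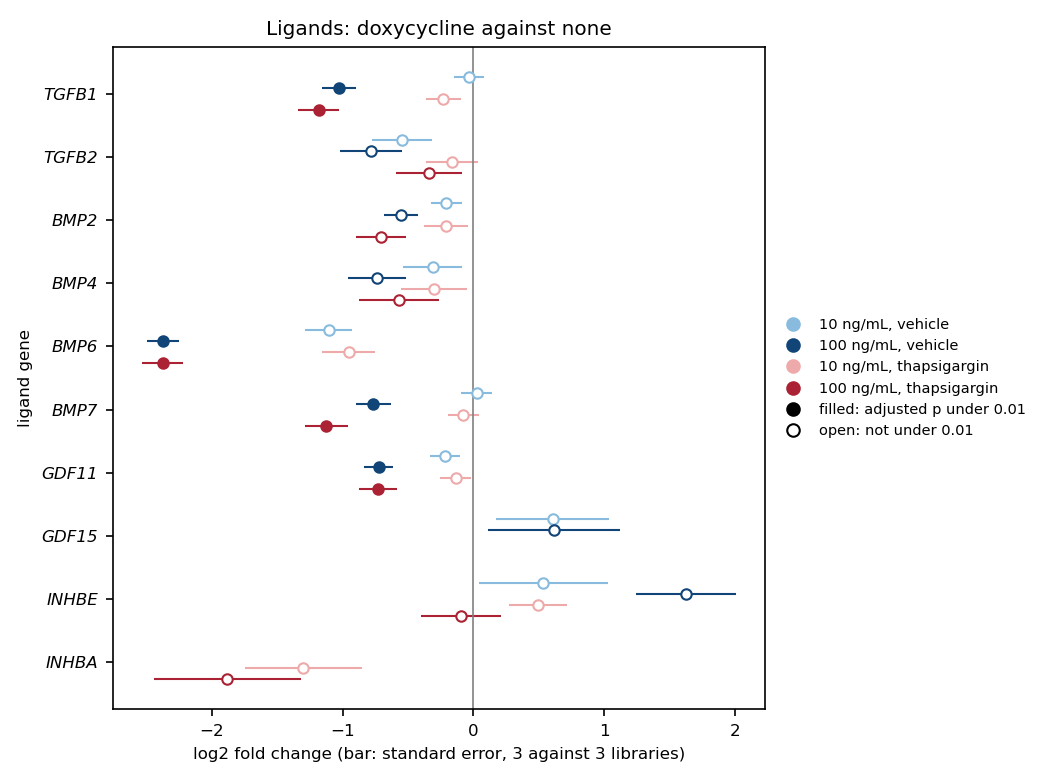
Log2 fold change against no doxycycline (horizontal axis, bars are standard errors, 3 against 3 libraries) of each ligand tested (vertical axis) at 10 and 100 ng/mL in vehicle (blues) and thapsigargin (reds), with filled points for an adjusted p under 0.01. The filled points are BMP6, TGFB1, BMP7 and GDF11 at 100 ng/mL in both treatments, and BMP6 at -2.37 and -2.38 lies farthest from 0.

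With thapsigargin in both arms, BMP6, TGFB1, BMP7 and GDF11 were again called lower at 100 ng/mL. BMP6 was at 75.3, 64.6 and 71.0 CPM without doxycycline and at 13.3, 13.9 and 13.5 CPM with 100 ng/mL. It fell 5.19-fold with no overlap (log2 fold change -2.38 ± 0.16, adjusted p = 1.6e-06). TGFB1 was at 74.7, 63.4 and 85.1 CPM without and 33.7, 29.01 and 35.5 CPM with induction (log2 fold change -1.18 ± 0.16, adjusted p = 0.00021), and its groups did not overlap.

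BMP7 was at 51.5, 43.8 and 52.4 CPM in thapsigargin-treated cells without doxycycline and at 26.0, 19.0 and 22.8 CPM at 100 ng/mL. It fell 2.18-fold (log2 fold change -1.13 ± 0.17, adjusted p = 0.00042). GDF11 was at 54.8, 49.8 and 53.5 CPM without and 30.2, 31.1 and 34.2 CPM with 100 ng/mL (log2 fold change -0.73 ± 0.15, adjusted p = 0.0036). Its groups did not overlap, but the call was lost without replicate 1, 2 or 3 of the uninduced thapsigargin group or replicate 2 of the induced one, with adjusted p-values of 0.012 to 0.031. The 4 calls of 9 ligands compare with 9.00% of 14358 genes lower, a share that ran from 5.03% without replicate 2 to 13.7% without replicate 1 of the induced group. The log2 fold changes of the other 5 tested ligands were -1.88 for INHBA, -0.70 for BMP2, -0.57 for BMP4, -0.34 for TGFB2 and -0.09 for INHBE, and none passed. INHBA passed the filter in this comparison only through the uninduced thapsigargin group, where it was high. The median of the 9 was -0.73 and that of all genes 0.04.

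At 10 ng/mL with thapsigargin, edgeR called 0 of 9 ligands and 0.00% of 14509 genes. BMP6 had 49.8, 33.2 and 26.8 CPM in these libraries, all below the uninduced thapsigargin libraries (log2 fold change -0.95 ± 0.20, adjusted p = 0.39). Across these 3 libraries the order of ERN2 (32.1, 53.9 and 112 CPM) was the reverse of the order of BMP6. That order rests on 3 libraries, and a link between the levels was not tested. At an unadjusted p under 0.05, 2 ligands were lower, BMP6 and INHBA (2.99% of genes), and DESeq2 called 1 lower (0.324%). INHBA passed the filter in this comparison only through the uninduced thapsigargin group, where it was high, so its part in that count is a description. In this comparison same-numbered libraries deviated together, and a fit with the replicate number as a block called BMP6 as the 1 ligand lower (log2 fold change -0.98, adjusted p = 2.6e-06), against 2.53% of genes lower with the block. Between 10 and 100 ng/mL with thapsigargin, 3 of 9 ligands were lower at the higher dose, against 5.32% of 14493 genes. These were BMP6 (log2 fold change -1.43 ± 0.23, adjusted p = 0.0015), BMP7 (-1.06 ± 0.17, adjusted p = 0.0018) and TGFB1 (-0.96 ± 0.16, adjusted p = 0.0023). The count was 0 without replicate 1 or 2 of the 10 ng/mL group or replicate 2 of the 100 ng/mL group, with 1.48%, 0.975% and 0.285% of genes then lower. Without replicate 1 of the 100 ng/mL group it was 3, and 8.90% of genes were lower.

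Thapsigargin alone, in uninduced cells, was followed by higher mRNA of the inhibin beta chains INHBE and INHBA. INHBE had 11, 10 and 7 counts in vehicle and 40, 41 and 35 counts after 3 hours of thapsigargin. The groups were far apart (0.400 to 0.550 against 1.99 to 2.19 CPM), and INHBE rose 4.22-fold (log2 fold change 2.08 ± 0.30, adjusted p = 0.00045). The total of 116 against 28 counts gives a depth-scaled ratio of 4.31, with an exact 95% interval of 2.83 to 6.77 for counting error only.

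INHBA had 4, 1 and 1 counts in vehicle and 12, 14 and 12 counts with thapsigargin. No library overlapped, and the log2 fold change was 2.63 ± 0.55 (adjusted p = 0.0047), a depth-scaled ratio of 6.59 with an exact 95% interval of 2.77 to 19.1. The call of INHBA was lost without replicate 2 or 3 of the vehicle group or replicate 1 or 2 of the thapsigargin group (adjusted p of 0.014 to 0.019), and DESeq2 gave it no adjusted p. Both genes passed the filter on low counts only through the thapsigargin group, so the count of 2 of 9 ligands higher, against 6.45% of 14397 genes, is a description. With no filter, the adjusted p was 2.29e-05 for INHBE and 0.0034 for INHBA.

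The other ligands of uninduced cells mostly had lower values with thapsigargin, none past the threshold. GDF11 (log2 fold change -0.45, adjusted p = 0.0104), BMP7 (-0.47, adjusted p = 0.012), BMP4 (-0.92, adjusted p = 0.013) and TGFB1 (-0.45, adjusted p = 0.020) lay just outside, each with no overlap between the groups. BMP4, a BMP that patterns mesoderm, was at 6.65, 4.67 and 5.09 CPM in vehicle and at 2.98, 2.08 and 3.59 CPM with thapsigargin. edgeR called 0 ligands lower against 4.74% of genes, with 6 lower at an unadjusted p under 0.05 (17.2% of genes) and 4 by DESeq2 (7.94%). Without replicate 3 of the thapsigargin group, edgeR called BMP2, BMP4, BMP7, GDF11 and TGFB1 lower against 5.54% of genes, and 7 ligands in all against 13.0%. The 7 include INHBE and INHBA, which passed the filter only through the thapsigargin group, so that total is a description. BMP6 (-0.30), BMP2 (-0.38) and TGFB2 (0.13) were not called in the full comparison, although the groups of BMP6 (adjusted p = 0.057) did not overlap either. The HEK293 markers were lower with thapsigargin too. Their sum was 1936 to 2196 CPM in vehicle and 1516 to 1692 CPM with thapsigargin, and 5 of 5 had negative log2 fold changes (median -0.36). Of these, 3 were lower at an unadjusted p under 0.05 (17.2% of genes) and NEFL was called (-0.60 ± 0.11, adjusted p = 0.0026), beside 4.74% of genes called lower. CDX2, the colon epithelium marker with counts, was at 4.34 CPM in vehicle and 7.10 CPM with thapsigargin (log2 fold change 0.72 ± 0.20, adjusted p = 0.020), with no overlap between the groups. The part of these marker levels in the ligand values was not tested.

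GDF15 gave few reads in every group. It had 5, 9 and 10 counts in uninduced vehicle libraries and 6, 5 and 7 counts with thapsigargin, so it was not tested there, and the ratio of its totals was 0.781 with an exact 95% interval of 0.399 to 1.501. Its highest library was replicate 1 of 100 ng/mL in vehicle, with 22 counts, and its lowest was replicate 2 of 100 ng/mL with thapsigargin, with 0 counts, which allows up to 3. At 10 ng/mL it had 12, 15 and 15 counts in vehicle and 17, 13 and 9 with thapsigargin. At 100 ng/mL it had 22, 9 and 11 counts in vehicle and 11, 0 and 4 with thapsigargin, and the groups overlapped. At 10 and 100 ng/mL, where GDF15 was tested, no rise was called after 3 hours of thapsigargin. For INHBE, which had a similar number of reads in uninduced vehicle libraries, the lower bound of this ratio was 2.83. Both intervals cover counting error only, and INHBE passed the filter there only through the thapsigargin group. A difference between these genes was not tested. At 10 ng/mL the ratio for GDF15 was 0.872 (exact 95% interval 0.549 to 1.38). At 100 ng/mL it was 0.401 (0.206 to 0.737) for counting error only, while across libraries the log2 fold change was -1.30 ± 0.75 with an adjusted p of 0.28.

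**Figure D3:**
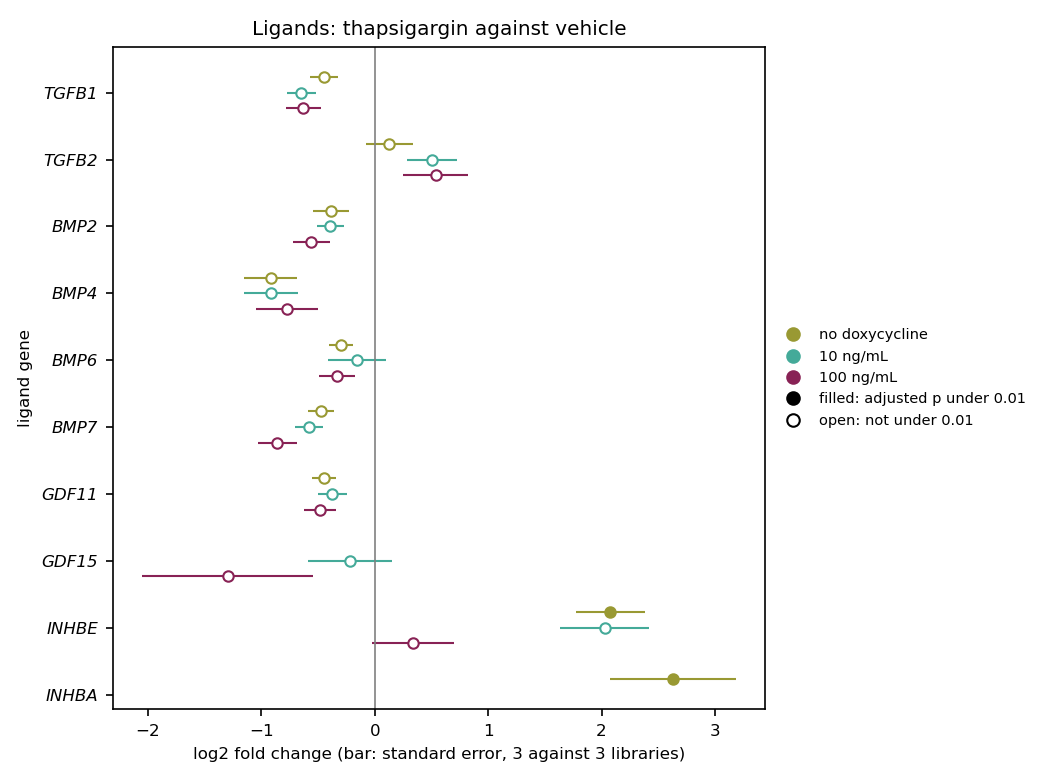
Log2 fold change of thapsigargin against vehicle (horizontal axis, bars are standard errors, 3 against 3 libraries) of each ligand tested (vertical axis) in uninduced cells and for both doses of doxycycline, with filled points for an adjusted p under 0.01. INHBE and INHBA without doxycycline are the filled points, at 2.08 and 2.63, and INHBE is at 0.34 with 100 ng/mL.

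In cells at 10 ng/mL, INHBE again stood at the upper end of the thapsigargin response. It had 10, 26 and 10 counts in vehicle and 64, 72 and 67 counts with thapsigargin, with no overlap. The log2 fold change was 2.03 ± 0.39 with an adjusted p of 0.016 in edgeR and 6.06e-05 by DESeq2. edgeR called 0 of 9 ligands, against 1.45% of 14607 genes in either direction, while 2 were higher (13.6% of genes) and 5 lower (11.0%) at an unadjusted p under 0.05. DESeq2 called 1 higher (4.95% of genes) and 3 lower (3.22%). INHBE was among the ligands higher by both rules. It passed the filter in this comparison only through the thapsigargin group, so these counts of higher ligands are a description. TGFB1 was at 70.7, 60.7 and 60.3 CPM with thapsigargin, below its 3 vehicle libraries (log2 fold change -0.65, adjusted p = 0.016).

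At 100 ng/mL, INHBE had 42, 40 and 18 counts in vehicle and 52, 21 and 36 counts with thapsigargin, and the groups overlapped. Its log2 fold change was 0.34 ± 0.36 (adjusted p = 0.57), from a vehicle level of 1.60 ± 0.619 CPM that was above the uninduced one of 0.498 ± 0.0846. Again edgeR called 0 of 9 ligands, against 0.201% of 14427 genes in either direction, with 5 lower at an unadjusted p under 0.05 (12.3% of genes) and 2 lower by DESeq2 (3.65%). BMP7 had 26.0, 19.0 and 22.8 CPM with thapsigargin, below its 3 vehicle libraries (log2 fold change -0.86, adjusted p = 0.031). Without replicate 1 of the 100 ng/mL thapsigargin group, BMP7 (adjusted p = 0.00071) and TGFB1 (0.006) were called lower, 2 of the ligands against 7.84% of genes lower in that fit.

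Whether the thapsigargin response differed with dose was tested as an interaction. No ligand passed in edgeR at either dose, against 0.00% of 14857 genes for the low dose and 0.0406% of 14768 genes for the high dose. Without replicate 1 of the 100 ng/mL thapsigargin group the latter share was 8.60%, and still 0 ligands passed. INHBE at 100 ng/mL came nearest, with an interaction of -1.66 ± 0.47 on the log2 scale and an adjusted p of 0.082. INHBA had -2.49 ± 0.96 at 100 ng/mL (adjusted p = 0.14) and -2.48 ± 0.89 at 10 ng/mL (adjusted p = 0.78), on totals of 11 and 10 counts in vehicle and thapsigargin at 100 ng/mL and of 16 and 19 at 10 ng/mL. For BMP6 the interactions with the low and the high dose were 0.16 ± 0.30 and 0.05 ± 0.16. At an unadjusted p under 0.05, 1 ligand passed for the low dose, INHBA (4.47% of genes), and 2 for the high dose, INHBE and INHBA (24.7%). DESeq2 called 0 for both (0.0202% and 2.94%). INHBA passed the filter in both interactions only through the uninduced thapsigargin group, where it was high, so its interaction values are a description.

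Ordered over the 6 groups, BMP6 ran from 87.2 CPM (uninduced, vehicle) through 70.3 (uninduced, thapsigargin), 40.7 and 36.6 (10 ng/mL, vehicle and thapsigargin) to 17.4 and 13.6 CPM (100 ng/mL, vehicle and thapsigargin). The 10 ng/mL groups overlapped, and the other neighbours did not. INHBE ran from 3.02 CPM (10 ng/mL, thapsigargin) through 2.12 and 1.97 (thapsigargin, uninduced and 100 ng/mL) to 1.60, 0.740 and 0.498 CPM (vehicle, 100 ng/mL, 10 ng/mL and uninduced), and only the first of these groups was clear of its neighbour. TGFB2 ranged over 4.61 to 13.0 CPM, and each of its neighbouring groups overlapped.

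The genes whose log2 CPM followed BMP6 most closely over the 18 libraries were SORT1, which encodes the sorting receptor sortilin (Pearson r = 0.987), PIGT, a subunit of the GPI transamidase (0.987), the RING finger genes RNF130 (0.986) and RNF167 (0.984), and LAMC1, the laminin gamma 1 chain (0.983). For INHBE they included ZNF70 (0.917), MSTO2P (0.896), LOC729218 (0.894) and XPC (0.892). For GDF15 they were SMIM20 (0.857), CD207 (0.849), PIK3IP1 (0.838), WT1-AS (0.830) and CSPG4 (0.825). These are descriptions over libraries that share 6 conditions, and in the case of GDF15 they rest on 0 to 22 counts a library.

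The rest of the pathway was read from lists of genes by role. At 100 ng/mL in vehicle, 3 of 4 convertase genes fell, beside 7.49% of all genes lower. They were FURIN (log2 fold change -1.82 ± 0.12, adjusted p = 5.7e-07), the main enzyme that cuts these precursors, PCSK6 (-1.23 ± 0.13, adjusted p = 2.7e-05) and PCSK5 (-0.94 ± 0.13, adjusted p = 0.00019). Of 15 receptors and co-receptors tested, 7 fell and 0 rose, led by the type II receptor BMPR2 (-1.30 ± 0.11) and the type I receptors ACVR1 (-1.22 ± 0.15) and ACVR1B (-0.81 ± 0.11). Of 17 antagonists and latency proteins, 4 fell, led by LTBP1 (-2.02 ± 0.12) and LTBP3 (-1.17 ± 0.14), which hold latent TGF-beta, and TWSG1 (-0.89 ± 0.11), a BMP-binding protein. Of 10 other superfamily ligands, 2 fell, BMP8B (-1.59 ± 0.15) and GDF6 (-0.94 ± 0.19).

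SMAD proteins and the genes they regulate form the part of the pathway inside the cell. In the same comparison 0 of 8 SMAD genes passed in edgeR, with 2 lower at an unadjusted p under 0.05 (17.1% of genes) and 1 lower by DESeq2 (9.67%). Of 12 SMAD target genes 2 fell, against 7.49% of genes, with 6 lower at an unadjusted p under 0.05 (17.1%) and 3 by DESeq2 (9.67%). They were PMEPA1 (log2 fold change -0.73 ± 0.12), which encodes an inhibitor of TGF-beta signaling, and ID2 (-0.65 ± 0.11), a BMP target. List medians were -1.09 for the convertases, -0.81 for receptors, -0.47 for antagonists and latency proteins, -0.39 for other ligands, -0.26 for SMAD targets and -0.11 for SMADs, beside -0.01 for all genes. No difference between the lists was tested.

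**Figure D4:**
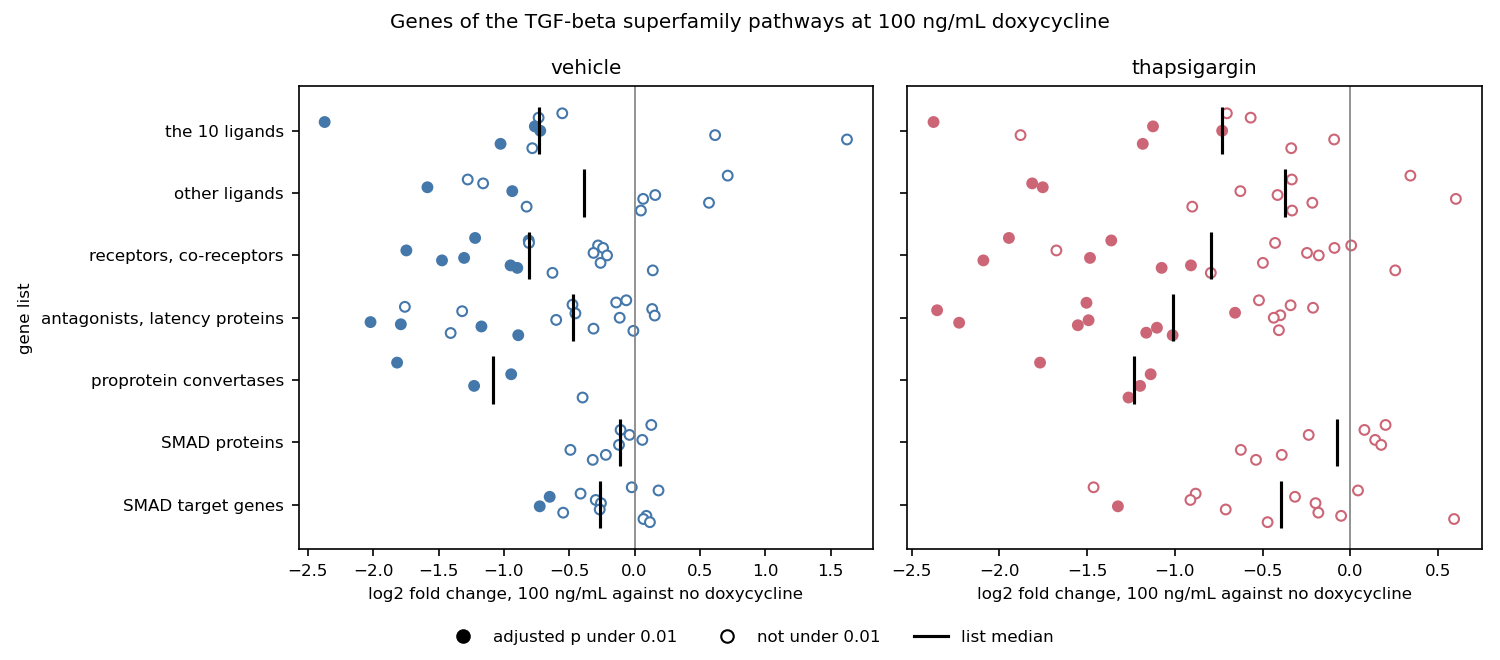
Log2 fold change at 100 ng/mL against no doxycycline (horizontal axis) of every tested gene of each list (vertical axis), in vehicle (left) and thapsigargin (right), with filled points for an adjusted p under 0.01 and a bar at the list median. The convertases have medians of -1.09 and -1.23 and the SMAD genes of -0.11 and -0.08, and no SMAD gene is filled.

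With thapsigargin in both arms, the convertase genes fell together at 100 ng/mL. All 4 passed, beside 9.00% of all genes lower, the lowest adjusted p-values being those of FURIN, PCSK6 and PCSK7 (log2 fold changes -1.77, -1.20 and -1.26). So did 6 of 15 receptors, led by ACVR1 (-1.95 ± 0.18), and 9 of 15 antagonists and latency proteins, led by LTBP1 (-2.23 ± 0.18). Of 10 other ligands 2 fell, BMP8B (-1.75 ± 0.22) and its near-identical neighbour BMP8A (-1.81 ± 0.38), between which reads may be split uncertainly. Of 12 SMAD targets 1 fell, PMEPA1 (-1.33 ± 0.19), and 0 of 8 SMAD genes passed in edgeR, with 2 lower at an unadjusted p under 0.05 (19.3% of genes) and 1 by DESeq2 (11.5%).

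Thapsigargin alone gave calls in both directions among these genes, beside 6.45% of all genes higher and 4.74% lower. In uninduced cells 2 of 17 antagonists and latency proteins rose, the BMP antagonists NOG (log2 fold change 1.32 ± 0.18) and GREM1 (2.08 ± 0.29). Of 8 SMAD genes 2 rose, the BMP-pathway SMAD9 (0.91 ± 0.12) and SMAD1 (0.53 ± 0.11), and 0 fell. Of 12 SMAD targets 2 rose, the BMP targets ID3 (0.95 ± 0.17) and ATOH8 (1.30 ± 0.27), and 0 fell. At an unadjusted p under 0.05, 5 SMAD genes and 7 SMAD targets were higher (18.8% of genes), and DESeq2 called 2 and 3 higher (9.29%), with 0 lower by either. Of 15 receptors and co-receptors 5 fell and 0 rose, led by ACVR2B (-0.56 ± 0.11), ACVRL1 (-1.21 ± 0.26) and ACVR1C (-1.01 ± 0.22), while 2 of 17 antagonists and latency proteins fell, LTBP3 (-0.52 ± 0.12) and TWSG1 (-0.43 ± 0.10). Of 10 other ligands, 0 passed in edgeR, with 2 lower at an unadjusted p under 0.05 (17.2% of genes) and 1 by DESeq2 (7.94%). Of 4 convertases 0 passed in edgeR or DESeq2, with 2 lower (17.2% of genes) and 1 higher (18.8%) at an unadjusted p under 0.05.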

How the data were processed

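RNA-Seq of HEK293doxERN2 cells was analysed in 18 libraries. The authors prepared stranded mRNA libraries, ran the VIPER pipeline, in which STAR aligned the single-end reads, and deposited unnormalized, unfiltered read counts per gene symbol. The submitters' processing notes name hg38, STAR and DESeq2. Versions, annotation and strand setting are not given in the sources used here. In 28 of 25435 rows a symbol had become a date. Groups and replicate numbers came from the sample labels. The ligands, the pathway lists and the tests were chosen with earlier results of these data known.

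Each comparison used the groups it concerns. Rows were kept by filterByExpr (minimum count 10), scaled by TMM and put through the quasi-likelihood test of edgeR 4.0.16 in R 4.3.3. P-values were adjusted by Benjamini-Hochberg across every gene tested, with a threshold of 0.01. The standard error is the log2 fold change over the square root of F. CPM were TMM-scaled over all 18 libraries. The scripts were tested on simulated data. All ligands were reported, with fold changes for those that passed and their values at other doses, and from each pathway list up to 3 genes with the smallest adjusted p per comparison. Other values were named after they were seen. Genes alike in pattern were the 5 with the highest Pearson r of log2 CPM (prior count 2), of which 1 for INHBE is not reported here. Positions, lengths and transcripts came from GENCODE 29 (GRCh38), promoters from RefSeq. Replicates differed by more than sampling noise in every pair (chi-square per degree of freedom 6.99 to 60.2).

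Same-numbered libraries deviated together in every pair of 1 comparison, 10 ng/mL against none with thapsigargin (correlations of deviations 0.330 to 0.457). The main fit had no block there either, and the replicate block was run as an alternative. Elsewhere the lowest correlation was 0.0881 or less, and whether equal numbers mark a shared batch was not tested. Alternatives were DESeq2 1.42.0, RLE factors, library totals alone, no filter, all 6 groups in 1 fit, the replicate block, a threshold of 0.05 and leaving out each library. Intervals and limits from counts cover counting error only. Plots came from Python 3.11.15 and matplotlib 3.10.9.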

Additional observations from a re-analysis of the deposited data

How the results depend on the processing

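Counts of ligands called moved with the setting in the comparisons near the threshold. For the thapsigargin response without doxycycline, with 10 and with 100 ng/mL, the 2, 0 and 0 calls (11.2%, 1.45% and 0.201% of all genes) became 6, 4 and 1 at a threshold of 0.05 (22.6%, 6.91% and 3.42%), 5, 4 and 2 with DESeq2 (17.2%, 8.17% and 5.62%), and 6, 2 and 1 with no filter (11.0%, 2.66% and 1.51%). Where the filter was used, INHBE and INHBA without doxycycline, and INHBE at 10 ng/mL, passed it only through the thapsigargin group. Their part in these counts, and in those with the replicate block or a library left out, is a description. With all 6 groups in 1 fit there were 3 and 3 calls at 10 and 100 ng/mL (676 and 941 of 15023 genes). For 10 ng/mL against none in vehicle the 0 calls (0.193%) became 1 at a threshold of 0.05 (0.759%), with DESeq2 (3.26%) and with no filter (3.14%), and with thapsigargin 1 with DESeq2 (0.342%). For 100 ng/mL against none in vehicle the 4 calls (8.33%), all lower, became 8 at a threshold of 0.05 (14.3%) and 7 with no filter (8.02%). Both of these counts include INHBE, which was higher and passed the filter, where it was used, only through the induced group. For 100 against 10 ng/mL in vehicle, library totals alone left 1 of 3 calls (1.99% in place of 2.45%). In the interaction at 100 ng/mL, library totals alone moved the median of all genes to -0.14, and no ligand was called with RLE factors or library totals in either interaction.

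With the replicate block the calls were 7 for the thapsigargin response without doxycycline (24.8% of all genes), 7 at 10 ng/mL (24.8%), 1 for 10 ng/mL against none in vehicle (0.855%), 2 in place of 4 for 100 ng/mL against none in vehicle (5.19%, BMP7 adjusted p = 0.015, GDF11 0.012) and 3 in place of 4 with thapsigargin (9.68%), 4 in place of 3 for 100 against 10 ng/mL in vehicle (8.41%), and 1 in place of 3 with thapsigargin (2.65%). In these comparisons the correlations of deviations between same-numbered libraries ran from -0.362 to 0.507. For the thapsigargin response without doxycycline they were 0.088 to 0.270, and in each of the others the lowest was negative. Whether the numbers mark a shared batch was not tested. For 10 ng/mL against none with thapsigargin, where each same-numbered pair deviated together, 1 ligand was called in place of 0.

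Leaving out each library gave 1 to 7 calls for the thapsigargin response without doxycycline, 0 to 0 at 10 ng/mL, 0 to 2 at 100 ng/mL, 0 to 1 for 10 ng/mL against none in vehicle, 3 to 5 for 100 ng/mL against none in vehicle and 3 to 4 with thapsigargin, and 0 to 3 for 100 against 10 ng/mL in each treatment. The shares of all genes called moved over the same fits, from 5.02% to 13.0%, 0.188% to 3.32%, 0.0273% to 17.6%, 0.00% to 18.8%, 6.27% to 9.56%, 5.23% to 27.2%, 0.00% to 3.37% (vehicle) and 0.285% to 18.4% (thapsigargin). Those of 17.6%, 27.2% and 18.4% came without replicate 1 of the 100 ng/mL thapsigargin group, and that of 18.8% without replicate 1 of the 10 ng/mL vehicle group. BMP6 and TGFB1 stayed past the threshold at 100 ng/mL against none, in both treatments, under each alternative run.

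The directions that reversed were of ligands that were not called. With 1 library left out, their log2 values ran from -0.052 to 0.36 for TGFB2 and from -0.45 to 0.025 for BMP6 in the thapsigargin response, without doxycycline and at 10 ng/mL in turn. For 10 ng/mL against none in vehicle they ran from -0.059 to 0.098 for BMP7, from -0.12 to 0.80 for INHBE and from -0.11 to 0.039 for TGFB1, and with thapsigargin from -0.32 to 0.018 for TGFB2. They ran from -0.32 to 0.064 for INHBE at 100 ng/mL against none with thapsigargin, from -0.48 to 0.064 for TGFB2 and, in vehicle, from -0.52 to 0.37 for GDF15 at 100 against 10 ng/mL, and from -0.31 to 0.62 for INHBE in the interaction at 10 ng/mL. GDF15 for 100 against 10 ng/mL in vehicle also reversed with the replicate block (-0.012). The cause of these shifts was not tested. Depth limits GDF15, INHBA and INHBE, which had 0 to 22, 1 to 14 and 7 to 72 counts a library.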
